A study of Schmidtea mediterranea with 24 samples.

Results

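Transcripts of the *nou-darake* family were followed through the first day of tail regeneration in the planarian *Schmidtea mediterranea*. The members were 3 of the 82669 transcripts of the count table, taken by their transcript numbers and not by their values: *ndk* (SmedASXL_009279), *ndk-3* (SmedASXL_015265) and *ndl-5* (SmedASXL_010328). The row of *ndl-5* carries no gene name in the count table, and its identity rests on the study's list of patterning genes. Another named transcript of the family, *ndk-4* (SmedASXL_014712), was read beside them.

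RNA had been sequenced from 24 pools of the asexual clonal strain CIW4, in 8 groups of 3 biological replicates, and read as counts per transcript. All animals, controls included, were fed double-stranded RNA 3 times, kept 15 days in high salt and irradiated at 60 Gy, and those to be cut were amputated 24 h later. The RNA fed to *control(RNAi)* animals was of the *gfp* sequence, and that fed to the others targeted *yki*. The groups were intact *control(RNAi)* and *yki(RNAi)* animals, and *control(RNAi)* and *yki(RNAi)* tails collected 6, 12 or 24 h post amputation (hpa). A library pooled 15 tails or more than 8 intact animals. The age of the animals and the level of the cut that made the tails are not given in the sources used here. Intact animals were taken 24 h after irradiation, and tails later than that by their time after amputation. A difference between tails and intact animals therefore joins the body region sampled, the injury and the time since irradiation, which cannot be told apart. In bulk tissue, fewer cells of a type and less RNA per cell cannot be told apart either.

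The *nou-darake* proteins resemble receptors for fibroblast growth factors (FGFs) in the part outside the cell but lack the kinase that such receptors use to signal. In planarians *ndk* is known for its expression in the head, and its loss lets brain tissue form outside the head. Several relatives are expressed in bands along the anterior part of the body wall muscle, whose cells carry much of the animal's positional information. Yorkie, encoded by *yki*, is the transcriptional co-activator at the end of the Hippo signalling cascade.

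Library totals ranged from 11.02 to 23.6 M counts (median 20.6), and the members were covered by 44 to 2432 counts in a library. The targeted transcript, *yki*, lay between 86.8 and 121 CPM (counts scaled to the library total) in the 12 *control(RNAi)* libraries and between 12.4 and 19.0 CPM in the 12 *yki(RNAi)* libraries. Irradiation removes dividing stem cells, and *piwi-1*, a stem cell marker, was at 1.89 to 14.2 CPM, while *piwi-2*, another gene of that family, was at 216 to 354 CPM. A pair of *yki(RNAi)* tail libraries, replicate B at 6 hpa and replicate B at 24 hpa, held transcripts that the other tails nearly lacked, and 1 *control(RNAi)* library, replicate B at 6 hpa, stood apart in members of the family. Both are taken up with the results that they touch.

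Intact animals held the most *ndk*. In intact *control(RNAi)* animals *ndk* measured 27.4, 23.5 and 29.0 CPM in replicates A, B and C, and in intact *yki(RNAi)* animals 28.4, 26.9 and 27.8 CPM. In *control(RNAi)* tails it measured 2.58, 7.97 and 2.31 CPM at 6 hpa, 2.95, 2.79 and 3.39 CPM at 12 hpa, and 5.19, 5.58 and 5.62 CPM at 24 hpa. In *yki(RNAi)* tails the values were 3.71, 4.01 and 2.91 CPM at 6 hpa, 3.62, 2.88 and 3.30 CPM at 12 hpa, and 3.81, 3.62 and 4.14 CPM at 24 hpa. Every tail lay below every intact library, and the highest tail value was the 7.97 CPM of *control(RNAi)* 6 hpa replicate B. In that library *ndk* had 172 counts (95% exact Poisson interval 6.82 to 9.25 CPM), against 52 counts in replicate A (1.92 to 3.38 CPM) and 44 in replicate C (1.68 to 3.10 CPM). These intervals cover counting error only. Ordered by group mean, intact *yki(RNAi)* animals (27.7 ± 0.756 CPM, SD, n = 3) and intact *control(RNAi)* animals (26.6 ± 2.82) were followed by *control(RNAi)* tails at 24 hpa (5.46 ± 0.238) and 6 hpa (4.28 ± 3.19), by *yki(RNAi)* tails at 24, 6 and 12 hpa (3.86 ± 0.263, 3.54 ± 0.571 and 3.27 ± 0.368), and by *control(RNAi)* tails at 12 hpa (3.04 ± 0.315). In that order the ranges of neighbouring groups overlapped throughout, except between intact animals and tails.

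For *ndk-3* the same step between intact animals and tails was seen at a smaller size. Its level was 20.3, 22.1 and 23.1 CPM in intact *control(RNAi)* animals and 23.8, 21.5 and 22.5 CPM in intact *yki(RNAi)* animals. *control(RNAi)* tails held 5.40, 6.11 and 5.19 CPM at 6 hpa, 5.05, 4.57 and 5.38 CPM at 12 hpa, and 5.84, 6.51 and 8.31 CPM at 24 hpa. *yki(RNAi)* tails held 5.32, 6.04 and 4.58 CPM at 6 hpa, 5.78, 5.95 and 5.21 CPM at 12 hpa, and 6.02, 6.63 and 6.94 CPM at 24 hpa. Among tails the mean was highest at 24 hpa in both RNAi groups, and *control(RNAi)* 24 hpa replicate C was the highest single tail. Apart from the step below intact animals, neighbouring groups in the order of means were separate once, between *yki(RNAi)* tails at 24 hpa (6.53 ± 0.472 CPM, SD, n = 3) and at 12 hpa (5.65 ± 0.387).

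*ndl-5* had the most counts of the members. Its level was 80.0, 83.2 and 106 CPM in intact *control(RNAi)* animals and 94.3, 91.8 and 99.1 CPM in intact *yki(RNAi)* animals. In *control(RNAi)* tails it was 15.0, 24.5 and 14.4 CPM at 6 hpa, 10.9, 12.6 and 12.4 CPM at 12 hpa, and 11.6, 13.9 and 10.4 CPM at 24 hpa. In *yki(RNAi)* tails it was 10.02, 11.6 and 10.7 CPM at 6 hpa, 9.23, 8.33 and 8.38 CPM at 12 hpa, and 10.6, 9.54 and 9.38 CPM at 24 hpa. The highest tail was again *control(RNAi)* 6 hpa replicate B, and the lowest 3 were the *yki(RNAi)* tails at 12 hpa. *control(RNAi)* tails at 6 hpa (18.0 ± 5.63 CPM, SD, n = 3) lay above all other tail groups. Next by mean came the 24 and 12 hpa tails of *control(RNAi)* and the 6 and 24 hpa tails of *yki(RNAi)*, each overlapping with its neighbour, and *yki(RNAi)* tails at 12 hpa (8.65 ± 0.508 CPM) lay below them all. Levels are not compared between genes, since transcript lengths were not used here.

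**Figure D1:**
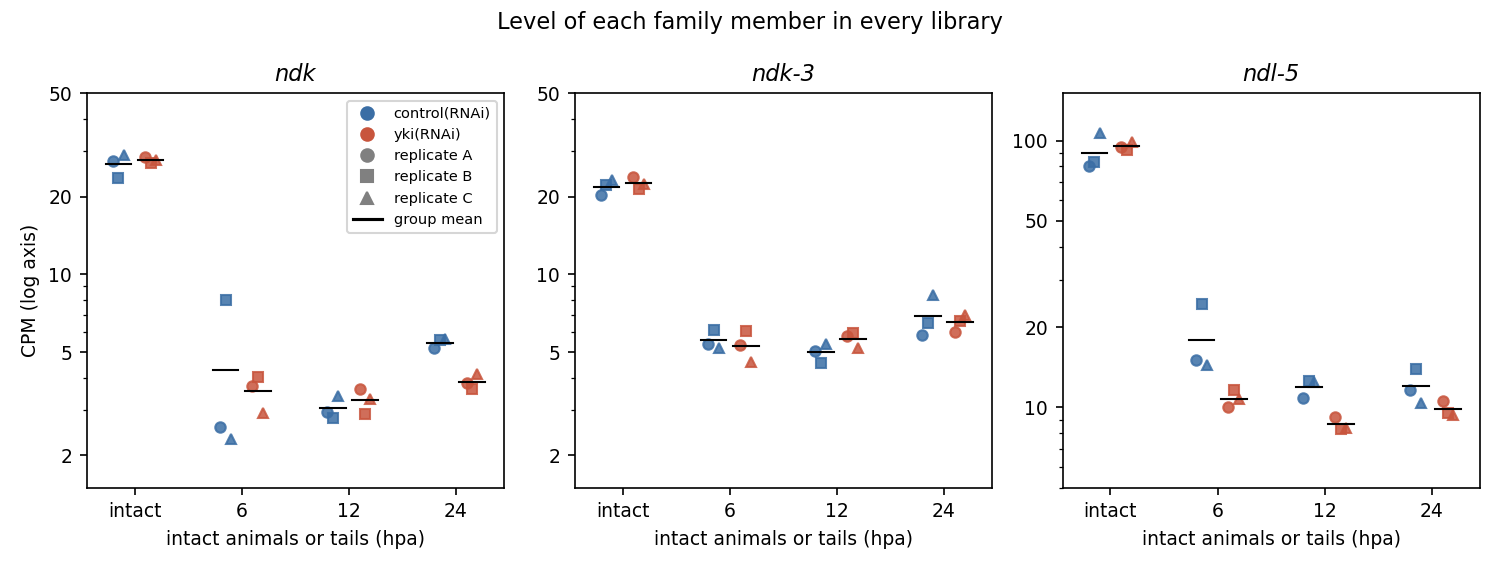
CPM (log axis) of *ndk*, *ndk-3* and *ndl-5* in each of the 24 libraries, by intact animals and tails at 6, 12 and 24 hpa. Blue is *control(RNAi)*, red is *yki(RNAi)*, marker shapes are replicates and black bars are group means of 3; all tails sit below all intact libraries, and *control(RNAi)* 6 hpa replicate B is the highest tail for *ndk* (7.97 CPM) and *ndl-5* (24.5 CPM).

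The first question was how far each member fell from whole animals to amputated tails. All 3 members were called lower in tails in each of the 6 comparisons, at an adjusted p under 0.05 from edgeR's quasi-likelihood test and a fold change of at least 2. Of all transcripts tested, 2.47%, 2.79% and 2.66% were called lower in *control(RNAi)* tails (6, 12 and 24 hpa in turn), and 2.31%, 2.95% and 3.47% after *yki(RNAi)*. The median log2 fold change of the 3 members ran from -2.29 to -3.06 over the 6 comparisons, and that of all transcripts tested from -0.03 to 0.01. The 3 comparisons of an RNAi group share their intact libraries and are not independent of one another.

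For *ndk* the 6 hpa tails of *control(RNAi)* had a log2 fold change of -2.65 (SE 0.334, adjusted p = 0.000332 from edgeR), the 12 hpa tails one of -3.15 (SE 0.124, adjusted p = 5.88e-09) and the 24 hpa tails one of -2.29 (SE 0.124, adjusted p = 4.14e-07). In *yki(RNAi)* tails they were -2.98 (SE 0.113), -3.06 (SE 0.099) and -2.84 (SE 0.092) at 6, 12 and 24 hpa. Without *control(RNAi)* 6 hpa replicate B the change of *ndk* at 6 hpa was -3.47 (SE 0.168). *ndk-3* changed by -2.001 (SE 0.120), -2.15 (SE 0.109) and -1.67 (SE 0.143) in *control(RNAi)* tails and by -2.10 (SE 0.111), -1.98 (SE 0.093) and -1.79 (SE 0.092) in *yki(RNAi)* tails, in the same order of times. *ndl-5* changed by -2.35 (SE 0.189), -2.93 (SE 0.118) and -2.91 (SE 0.138) in *control(RNAi)* tails and by -3.15 (SE 0.082), -3.44 (SE 0.071) and -3.28 (SE 0.080) in *yki(RNAi)* tails. The other family transcript, *ndk-4*, was also called lower in all 6 comparisons, with log2 fold changes from -1.80 (*control(RNAi)*, 6 hpa, SE 0.187) to -2.18 (*yki(RNAi)*, 6 hpa, SE 0.127).

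The level left in tails was then given as a share of the intact level. In *control(RNAi)* tails *ndk* kept, of its mean in intact animals, 16.1% ± 12.0 (SD, n = 3) at 6 hpa, then 11.4% ± 1.18 at 12 hpa and 20.5% ± 0.894 by 24 hpa. The first of these was 9.16% without *control(RNAi)* replicate B. In *yki(RNAi)* tails *ndk* kept 12.8% ± 2.06, 11.8% ± 1.33 and 13.9% ± 0.948. *ndk-3* kept more, from 22.9% ± 1.86 (*control(RNAi)*, 12 hpa) to 31.5% ± 5.85 (*control(RNAi)*, 24 hpa). *ndl-5* kept 20.0% ± 6.27, 13.3% ± 1.04 and 13.4% ± 1.98 in *control(RNAi)* tails, and 11.4% ± 0.853, 9.10% ± 0.534 and 10.4% ± 0.697 in *yki(RNAi)* tails. No member was at 0 in any tail, and the lowest shares of single tails were 8.66% for *ndk*, 20.3% for *ndk-3* and 8.77% for *ndl-5*.

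The members were set beside a list of 21 transcripts that *control(RNAi)* tails nearly lacked, whether by region, injury or time. These transcripts had at least 5 CPM in intact *control(RNAi)* animals and at most 5% of that in every *control(RNAi)* tail, and their sum was then read in all libraries. By that choice their sum stood at 0.684% to 1.34% of the intact level in the 9 *control(RNAi)* tails. It stood at 0.587% to 1.38% in 7 of the 9 *yki(RNAi)* tails, 15.3% in *yki(RNAi)* 6 hpa replicate B and 17.3% in *yki(RNAi)* 24 hpa replicate B. In those libraries *ndk* was at 14.5% and 13.1%, *ndk-3* at 26.8% and 29.3%, and *ndl-5* at 12.2% and 10.03% of the intact level. *ndk* and *ndl-5* were thus below the list there and above it in the other 7 *yki(RNAi)* tails, and *ndk-3* was above it in all 9. In *control(RNAi)* tails the choice held the list at 5% or less, so its place below the members there is no finding. At 24 hpa replicate B was not the highest *yki(RNAi)* tail for any member, and at 6 hpa it was the highest for all 3. The summed level of the 7 anterior genes stood at 69.9% of the intact level in 6 hpa replicate B, against 67.7% and 68.7% in replicates A and C, and at 50.8% in 24 hpa replicate B, against 49.7% and 58.3%. Of that sum *prep*, at 87.1% of its intact level, gave 37.5 of 83.1 CPM in 6 hpa replicate B. The sum therefore says little of genes that tails nearly lack. In *yki(RNAi)* 6 hpa replicates A, B and C *sfrp-1* was 1.41, 2.03 and 1.68 CPM, and *sfrp-2* 12.2, 10.9 and 12.1 CPM. At 24 hpa they were 1.60, 1.27 and 1.10 CPM, and 9.99, 10.8 and 10.5 CPM. The part of the 21 transcripts in the members' levels was not tested.

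That list was chosen to be low in every *control(RNAi)* tail, so it cannot show whether *control(RNAi)* 6 hpa replicate B, the library of high *ndk*, held such transcripts. Chosen instead on the *control(RNAi)* tails at 12 and 24 hpa alone, a list of 38 transcripts stood at 2.50%, 6.09% and 7.21% in *control(RNAi)* 6 hpa replicates A, B and C, against 1.69% to 3.37% in the *control(RNAi)* tails at 12 and 24 hpa that chose it. The choice held the list low in the tails at 12 and 24 hpa, so a higher level in tails at 6 hpa was likely in advance. Among the 6 hpa tails, which took no part in the choice, the list was higher in replicates B and C than in A. *ndk* was high in replicate B and not in replicate C. All 3 members were highest in replicate B among the 6 hpa *control(RNAi)* tails, as were 3 of 7 anterior genes, 3 of 13 posterior genes and 4 of 6 stem cell genes. So were 1 of 3 head tissue, 1 of 2 muscle and 2 of 3 epidermal lineage genes. The share of all transcripts highest in that library was not taken, so these counts have no background. The summed level of the 6 stem cell genes was 107%, 109% and 112% of the intact level in replicates A, B and C. *piwi-1* was 3.62, 14.2 and 4.77 CPM in replicates A, B and C, and *PCNA*, which clamps the polymerase to replicating DNA and was named after its values were seen, 0.495, 1.76 and 0.839 CPM. Their part in the members' values was not tested.

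Other genes of the body axis moved in both directions. The 7 anterior genes found in the table included 4 that were called lower in tails in every comparison, *sfrp-1*, *sfrp-2*, *wnt2-1* and *fzd-5/8-1* (the last named after its values were seen). *sfrp-1*, a secreted inhibitor of WNT signalling made in the head, went from 8.98, 10.3 and 7.70 CPM in intact *control(RNAi)* animals to 1.31, 0.947 and 0.749 CPM in the 12 hpa tails of *control(RNAi)*, a log2 fold change of -3.17 (SE 0.210). *notum*, another WNT inhibitor, which wounding induces, instead rose in *control(RNAi)* tails at 12 hpa (3.21, SE 0.155) and 24 hpa (1.21, SE 0.239). *prep*, a homeobox gene of the anterior end, did not reach the 2-fold minimum in any comparison. Of 13 posterior genes, the tails of *control(RNAi)* animals had 7, 8 and 7 called higher (6, 12 and 24 hpa in turn). Of all transcripts tested, 196 of 27727, 357 of 27423 and 449 of 27408 were called higher there. The tails of *yki(RNAi)* animals had 7, 6 and 6 of the 13 called higher, beside 130 of 26856, 907 of 28112 and 1712 of 27704 transcripts. In each comparison 1 posterior gene, the receptor gene *fzd-4-4* (named after its values were seen), was called lower. Several of these posterior genes had been listed by the study from these same libraries, so their counts are not independent evidence of a direction. *wnt11-2*, a posterior ligand, was 3.88, 4.53 and 4.90 CPM in intact *control(RNAi)* animals and 20.7, 18.6 and 18.5 CPM in their 6 hpa tails. *cintillo*, a sensory neuron marker of the head, was listed at 0 in all 18 tails and at 0.0752 to 0.173 CPM in intact animals, so depth left little to lose there. *ovo*, another head tissue marker, had 8 counts or fewer in any library. The group means of *ovo* in tails were 9.42% to 29.8% of the intact level in *control(RNAi)* and 12.6% to 23.8% in *yki(RNAi)*. *COE*, the only 1 of 3 head tissue markers with enough counts to be tested, was in contrast not called in any of the 6 comparisons. Its group means in tails were 81.3% to 94.7% of the intact level in *control(RNAi)* and 101% to 110% in *yki(RNAi)*.

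Of the muscle markers listed, only 2 collagen transcripts were found, *COL4A2* and *collagen-alpha-5*. The study counts the latter among wound-induced genes, so in injured tails the pair does not measure muscle content. Neither was called lower in any of the 6 comparisons. *COL4A2* was 56.0, 58.1 and 91.3 CPM in intact *control(RNAi)* animals and 134, 129 and 151 CPM in their 6 hpa tails (log2 fold change 0.98, SE 0.159, under the 2-fold minimum). *collagen-alpha-5* was 4.66, 4.96 and 3.24 CPM in intact *control(RNAi)* animals and 2.43, 3.43 and 2.57 CPM in their 6 hpa tails. It rose in *control(RNAi)* tails at 24 hpa, by 1.35 (SE 0.189), and in *yki(RNAi)* tails at that time, by 1.28 (SE 0.155).

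**Figure D2:**
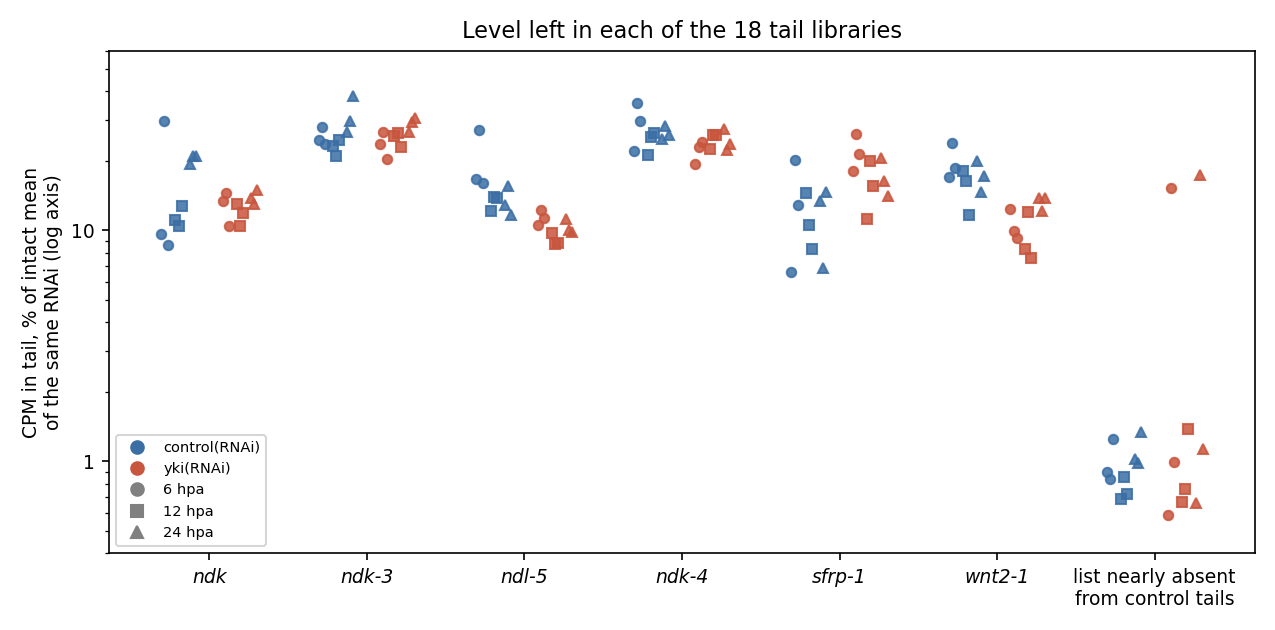
CPM in each of the 18 tail libraries as a percentage (log axis) of the mean of the 3 intact libraries of the same RNAi, for 3 members, *ndk-4*, 2 anterior genes and the summed list of 21 transcripts nearly absent from *control(RNAi)* tails. Blue is *control(RNAi)*, red is *yki(RNAi)* and marker shapes are times; the members lie between 8.66% and 38.1%, and the list lies under 1.4% except in the 2 *yki(RNAi)* libraries at 15.3% and 17.3%.

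The second question was whether loss of *yki* changed the members at a matched stage. A call needed an adjusted p under 0.05 and a fold change of at least 1.2 upwards or under 0.83 downwards, the study's rule for patterning genes. In intact animals none of the 3 was called, beside 3.66% of all transcripts tested, and the log2 fold changes were 0.05 (SE 0.099) for *ndk*, 0.04 (SE 0.098) for *ndk-3* and 0.07 (SE 0.107) for *ndl-5*. In 12 hpa tails *ndl-5* was the 1 member called, and it was lower in *yki(RNAi)*, beside 11.2% of all transcripts tested that were called lower and 22.1% called in either direction. In 6 hpa and 24 hpa tails no member was called, beside 5.96% and 4.05% of transcripts.

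*ndl-5* was lower in *yki(RNAi)* than in *control(RNAi)* tails by a log2 fold change of -0.45 (SE 0.089, adjusted p = 0.000859 from edgeR) at 12 hpa, and all 3 *yki(RNAi)* libraries lay below all 3 *control(RNAi)* libraries. At 6 hpa the libraries were separate too, with a log2 fold change of -0.72 (SE 0.191, adjusted p = 0.0542 from edgeR). That comparison passed in 8 of 13 alternatives, without *control(RNAi)* replicate C or *control(RNAi)* replicate A among them, and not without *control(RNAi)* replicate B (-0.42, SE 0.111, adjusted p = 0.0558 from edgeR, over all alternatives 0.000108 to 0.152). At 24 hpa the groups overlapped and the difference was -0.28 (SE 0.120, adjusted p = 0.254 from edgeR). How many of all transcripts separate between groups in this way was not taken, so the separations at 12 and 6 hpa have no background. Since the study had listed *ndl-5* as a patterning gene changed by *yki(RNAi)* on these libraries, these values describe that choice and do not test it anew.

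*ndk* differed most at 24 hpa, where *yki(RNAi)* tails (3.62 to 4.14 CPM) all lay below *control(RNAi)* tails (5.19 to 5.62 CPM). That separation too has no background and adds nothing to the test. The log2 fold change was -0.50 (SE 0.125, unadjusted p = 0.00310, adjusted p = 0.0612 from edgeR) and did not pass. At 6 hpa it was -0.27 (SE 0.407) and turned to 0.56 (SE 0.202, adjusted p = 0.155 from edgeR, over all alternatives 0.155 to 0.929) without *control(RNAi)* replicate B. At 12 hpa it was 0.11 (SE 0.152). For *ndk-3* the differences were -0.05 (SE 0.145), 0.18 (SE 0.117) and -0.08 (SE 0.147) at 6, 12 and 24 hpa, and its groups overlapped at each time. *ndk-4* had differences of -0.34 (SE 0.206), 0.06 (SE 0.156) and -0.08 (SE 0.157), with no call.

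Beside *ndl-5*, markers of the epidermal lineage were lower after *yki(RNAi)* at 12 hpa, whereas anterior genes and collagens moved in both directions. All 3 epidermal markers found, *prog-1*, *prog-2* and *vim-1*, which mark precursors of the epidermis, were called lower, with a median log2 fold change of -0.73 beside 0.01 for all transcripts tested. *prog-1* was 9.15, 9.89 and 8.52 CPM in *yki(RNAi)* and 22.5, 17.3 and 16.9 CPM in *control(RNAi)* (log2 fold change -1.03, SE 0.104). Their summed level was 36.1% to 39.7% of the intact level in *yki(RNAi)* and 63.4% to 73.8% in *control(RNAi)* tails, with no overlap. By 24 hpa the mean of *prog-1* was 1.06% of the intact level in *control(RNAi)* tails and 0.482% in *yki(RNAi)* tails. By staining, the study instead counted more *prog-2* cells in *yki(RNAi)* tails, at a later time and in animals not described as irradiated. In the 12 hpa tails 2 of 7 anterior genes were called higher and 2 lower in *yki(RNAi)* tails. *wnt2-1*, a ligand of the head region, was lower, at 0.665, 0.961 and 0.605 CPM against 1.78, 1.62 and 1.15 CPM in *control(RNAi)* (log2 fold change -0.999, SE 0.262), whereas *sfrp-2* was higher (0.59, SE 0.096). *COL4A2* was lower at 12 hpa (-0.40, SE 0.053, adjusted p = 1.81e-05 from edgeR) and *collagen-alpha-5* higher (0.80, SE 0.134). The part of epidermal lineage and muscle content in the lower *ndl-5* was not tested. Of the posterior genes 9 of 13 were called higher and 1 lower at that time. Of all 28391 transcripts tested, 3095 were called higher and 3169 lower.

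**Figure D3:**
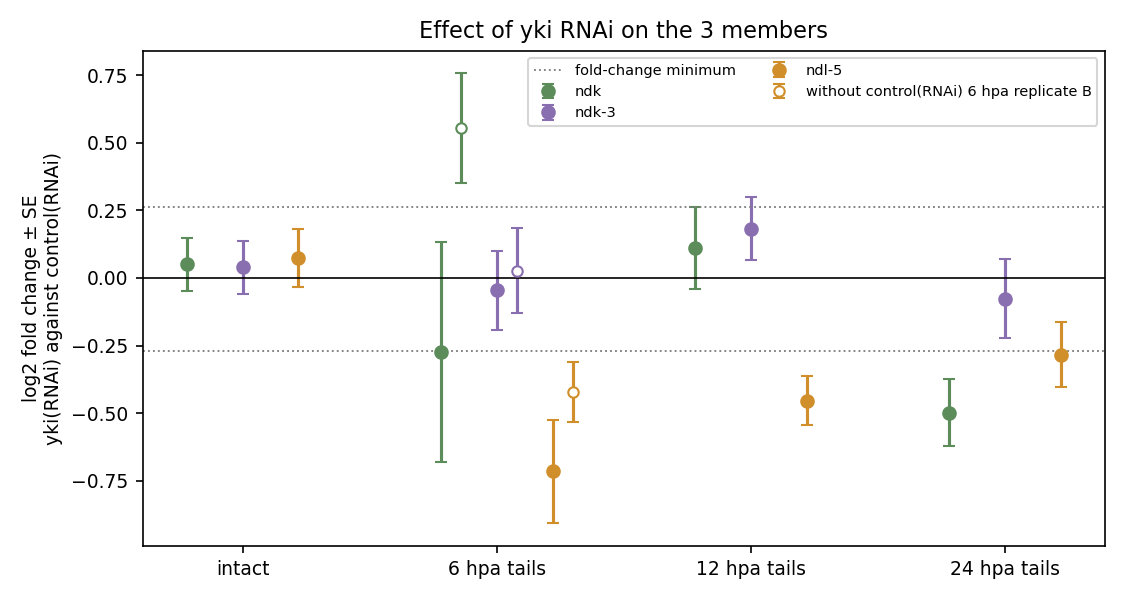
Log2 fold change of *yki(RNAi)* against *control(RNAi)* for the 3 members in intact animals and in tails at 6, 12 and 24 hpa, with bars of ± 1 SE from edgeR. Open points leave out *control(RNAi)* 6 hpa replicate B and dotted lines mark the fold-change minimum; *ndl-5* lies below 0 in tails at all times, and the 6 hpa value of *ndk* moves from -0.27 to 0.56 when that library is left out.

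Whether the fall from intact animals to tails differed between the RNAi groups was fitted as an interaction on 12 libraries. For *ndl-5* the fall was larger in *yki(RNAi)* at 12 hpa, by -0.51 on the log2 scale (SE 0.144, adjusted p = 0.0460 from edgeR). At that time 2.8% of 31448 transcripts were called in the same direction. The call did not hold in 1 fit of all 24 libraries (adjusted p = 0.131 from edgeR), with the first lane only (0.0617) or in 9 of 12 fits that left out 1 library. The fits with 1 library left out ran from -0.44 to -0.68, and the adjusted p over all alternatives from 0.000359 to 0.131. It passed without *control(RNAi)* intact replicate C, *control(RNAi)* 12 hpa replicate A or *yki(RNAi)* 12 hpa replicate A. All 3 epidermal lineage markers were also called lower in the 12 hpa interaction, with a median of -1.09, and their part in that of *ndl-5* was not tested. At 6 hpa the difference for *ndl-5* was -0.80 (SE 0.227, adjusted p = 0.424 from edgeR), and -0.36 (SE 0.166, adjusted p = 0.506) by 24 hpa. For *ndk* the difference was -0.33 (SE 0.412), 0.08 (SE 0.167) and -0.55 (SE 0.146, adjusted p = 0.338 from edgeR) at 6, 12 and 24 hpa, and the first of these was 0.50 (SE 0.203) without *control(RNAi)* 6 hpa replicate B. For *ndk-3* it was -0.09 (SE 0.159), 0.16 (SE 0.141) and -0.12 (SE 0.169). Without *control(RNAi)* intact replicate C the difference passed for *ndl-5* at 6 hpa (-0.94, adjusted p = 0.0474 from edgeR, over all alternatives 0.00133 to 0.749) and for *ndk* at 24 hpa (-0.64, adjusted p = 0.0433, over all alternatives 0.0433 to 0.672). The edgeR interaction fits called 0% of 30471 transcripts at 6 hpa, where 3045 had an unadjusted p under 0.05 and DESeq2 called 19, and 0.00648% at 24 hpa, where DESeq2 called 100.

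Steps in time were then read within the tails of each RNAi group, and were not tested between members. From 12 to 24 hpa in *control(RNAi)* tails, *ndk* rose by 0.84 on the log2 scale (SE 0.135, adjusted p = 0.00166 from edgeR). All 3 libraries at 24 hpa lay above all 3 at 12 hpa, a separation whose share over all transcripts was not taken. The call of *ndk* was lost in 1 fit of all 24 libraries (0.84, adjusted p = 0.0502 from edgeR, over all alternatives 0.000403 to 0.0502). *ndk-3* rose by 0.47 (SE 0.146, adjusted p = 0.0462 from edgeR), a call that was lost with DESeq2 (adjusted p = 0.0731), with the first lane only (0.276) and in 5 of 6 fits that left out 1 library, all but that without *control(RNAi)* 24 hpa replicate A (over all alternatives 0.0195 to 0.276). These were 2 of 3 members, beside 9.02% of 27483 transcripts called higher. *ndl-5* changed by 0.01 (SE 0.112) in that interval, and *ndk-4* by 0.12 (SE 0.156).

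From 6 to 12 hpa no member was called in *control(RNAi)* tails, beside 10.4% of transcripts. *ndl-5* changed by -0.58 (SE 0.180, adjusted p = 0.0617 from edgeR), by -0.27 (SE 0.096) without *control(RNAi)* 6 hpa replicate B and by -0.73 (adjusted p = 0.00521 from edgeR) without *control(RNAi)* 6 hpa replicate C. *ndk* changed by -0.50 (SE 0.392), and by 0.35 (SE 0.183) without *control(RNAi)* 6 hpa replicate B. From 6 to 24 hpa no member was called either in the main fit, which was not paired, beside 24.7% of transcripts. Over that interval *ndk* changed by 0.35 (SE 0.402, adjusted p = 0.575 from edgeR), and by 1.17 (SE 0.169, adjusted p = 0.00243 from edgeR) without replicate B at 6 hpa, a call that rests on leaving that library out (over all alternatives 0.00243 to 0.960). Over this interval *ndl-5* changed by -0.58 (SE 0.207, adjusted p = 0.0693 from edgeR). With the replicate letter as a block it was called, at -0.55 (SE 0.105, adjusted p = 0.00163 from edgeR). Without *control(RNAi)* 6 hpa replicate B it changed by -0.28 (SE 0.133, adjusted p = 0.160 from edgeR), and without *control(RNAi)* 6 hpa replicate C by -0.73 (adjusted p = 0.0418 from edgeR, over all alternatives 0.00163 to 0.175).

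In *yki(RNAi)* tails no member was called over any interval, beside 11.7%, 6.7% and 25.8% of transcripts from 6 to 12, 12 to 24 and 6 to 24 hpa. From 12 to 24 hpa *ndk* changed there by 0.23 (SE 0.144), *ndk-3* by 0.20 (SE 0.116) and *ndl-5* by 0.17 (SE 0.099). The difference between RNAi groups in that step of *ndk* was -0.60 (SE 0.186, unadjusted p = 0.00557, adjusted p = 0.169 from edgeR) and did not pass, beside 0.0513% of 31216 transcripts called (16, and 1 to 871 over the alternatives, with 130 higher and 227 lower by DESeq2). That fit and the steps from 6 to 24 hpa were chosen after the members' counts had been seen.

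Within a library the ratio of 2 members does not depend on depth or scaling, and transcript length drops out when the ratio is compared between libraries. It was compared between the 3 intact and the 9 tail libraries of each RNAi by two-sided exact permutation tests on log2 ratios, chosen after the counts had been seen. The tails of 3 times were pooled, the smallest p allowed was 0.00909, and p-values were adjusted over the 6 comparisons. The ratio of *ndk* to *ndk-3* was 1.01 lower in *yki(RNAi)* tails than in intact *yki(RNAi)* animals on the log2 scale (difference -1.01, exact permutation p = 0.00909, adjusted p = 0.0273), lower in 9 of 9 tails. In *control(RNAi)* the difference was -0.84 (exact permutation p = 0.0273, adjusted p = 0.0409), with tails from -1.17 to 0.38 against 0.09 to 0.44 in intact animals. Only replicate B at 6 hpa overlapped with the intact range, and without it the difference was -0.95 (exact permutation p = 0.0121, the smallest that 8 tails allow).

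The ratio of *ndk-3* to *ndl-5* was higher in tails, by 0.79 in *control(RNAi)* (exact permutation p = 0.0273, adjusted p = 0.0409) and by 1.33 in *yki(RNAi)* (exact permutation p = 0.00909, adjusted p = 0.0273). Tails spanned -2 to -0.33 in *control(RNAi)* and -1.23 to -0.43 in *yki(RNAi)*, against -2.20 to -1.91 and -2.14 to -1.98 in intact animals. The ratio of *ndk* to *ndl-5* differed by -0.04 in *control(RNAi)* (exact permutation p = 0.882, adjusted p = 0.882), with tails from -2.64 to -0.89 on both sides of the intact range. In *yki(RNAi)* it was higher in tails by 0.32 (exact permutation p = 0.0364, adjusted p = 0.0436), with tails from -1.89 to -1.18 and intact libraries from -1.84 to -1.73. By these ratios the 3 members did not fall by a common factor, though no difference between *ndk* and *ndl-5* was found in *control(RNAi)*. On average *ndk-3* kept more of its intact level than *ndk* or *ndl-5* in both RNAi groups. The ratio of any pair follows from the other ratios, so the comparisons are not independent. How reads shared by family members were split is not known, and its part in the ratios was not tested.

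**Figure D4:**
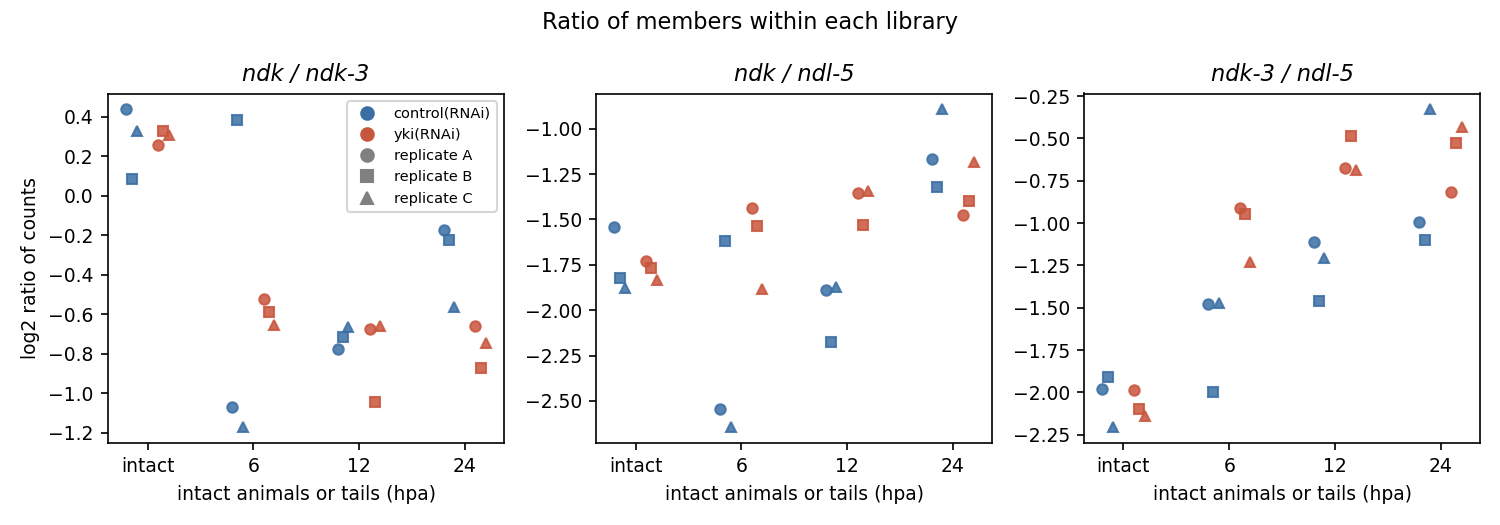
Log2 ratio of the counts of 2 members in each of the 24 libraries, for *ndk* over *ndk-3*, *ndk* over *ndl-5* and *ndk-3* over *ndl-5*, by intact animals and tails at 6, 12 and 24 hpa. Blue is *control(RNAi)*, red is *yki(RNAi)* and marker shapes are replicates; in *yki(RNAi)* the ratio of *ndk-3* to *ndl-5* runs from -1.23 to -0.43 in tails and from -2.14 to -1.98 in intact animals.

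Likeness of pattern was described by Pearson's r of log2(CPM + 0.5) over the 24 libraries, among 20408 transcripts with a mean of at least 1 CPM, of which 144 carry a gene name. The points of a correlation share their libraries and the step between intact animals and tails, so r is given as a description. Between family members r was 0.98 for *ndk* and *ndk-3*, 0.96 for *ndk* and *ndl-5* and 0.95 for *ndk-3* and *ndl-5*. Over the 18 tails alone these became 0.64, 0.39 and -0.07, and without *control(RNAi)* 6 hpa replicate B 0.73, -0.12 and -0.22. Among 20407 other transcripts, *ndk-3* ranked 1 for *ndk*, and *ndk* ranked 2 for *ndk-3*. *ndl-5* ranked 16 for *ndk* and 35 for *ndk-3*, so many transcripts outside the family stood closer to them. For *ndk* the named transcripts of most similar pattern were *ndk-3*, *ndk-4* (0.97), *ndl-5*, *wnt2-1* (0.94) and *sfrp-1* (0.93). For *ndk-3* they were *ndk*, *ndk-4* (0.97), *ndl-5*, *sfrp-1* (0.94) and *wnt2-1* (0.93).

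For *ndl-5* the named transcripts of most similar pattern were *ndk-4* (r = 0.98), a transcript annotated as *VonWillebrandfactor* (0.98), *wnt2-1* (0.97) and a pair annotated as *spondin* (smed016197 and smed012475, both 0.97). Within the 18 tails alone r with *ndl-5* was 0.59, 0.80, 0.72, 0.63 and 0.73 in that order. The mean of the *VonWillebrandfactor* transcript was 24.1 CPM in intact *control(RNAi)* animals and 3.74 CPM in their tails, and with *yki(RNAi)* it was 20.0 and 2.26 CPM. Unnamed transcripts stood closer still. SmedASXL_001966 reached 0.99 over all libraries and 0.90 in tails, and its mean was 51.9 CPM in intact *control(RNAi)* animals, against 16.3 CPM in their tails and 13.8 CPM in tails after *yki(RNAi)*. SmedASXL_001927 reached 0.99 and 0.88. For *ndk-3* the closest unnamed transcript, SmedASXL_019610 (0.98), averaged 6.03 CPM in intact *control(RNAi)* animals and 0.0638 CPM in their tails, and SmedASXL_008821 (0.97) 9.46 and 3.49 CPM. For *ndk* these were SmedASXL_014029 (0.97), at 21.3 and 1.34 CPM, and SmedASXL_006717 (0.97), at 11.8 and 0.316 CPM.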

How the data were processed

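Per the labels and the study's methods, poly(A)-selected RNA was read as 50 bp single-end reads, trimmed by 15 bp and aligned by the authors to the SmedASXL transcriptome. The submitters' processing notes name bcl2fastq 1.8.3, Bowtie2 2.2.4 and DESeq2. The deposited counts are raw whole-number counts per transcript and lane, not normalized. The counting tool and the treatment of reads shared by family members are not given in the sources used here, so the split of reads between them is uncertain. A further 6 deposited tables hold the authors' own comparisons (fold changes and p-values); they gave no value reported here and served only to tie names of the study's patterning table to transcript numbers. Names in the study's tables and labels gave the lists, and no name matched for genes of the FGF pathway, pharynx or gut.

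The 2 lanes were summed for 23 libraries. For *yki(RNAi)* intact replicate A the second lane holds damaged values, and that 1 column was not used. A row that names no transcript (6.31% to 7.49% of counts) was dropped. CPM used TMM factors over 24 libraries. Each comparison was fitted on its own groups in edgeR 4.0.16 (R 4.3.3; TMM, filterByExpr with min.count 10 and min.total.count 15, quasi-likelihood test, Benjamini-Hochberg over all transcripts tested). SE was taken as |log2 fold change| divided by the root of F. Interaction fits and time steps had no fold-change minimum. Replicates are the study's biological triplicates. Fits were tested on simulated data. Alternatives were DESeq2 1.42.0 size factors or its Wald test, no filter, 1 fit of all 24 libraries, a replicate block, the first lane, other fold-change minimums, other CPM scalings and leaving out each library. The members, the lists, and the rule for named transcripts (5 named and 2 unnamed of highest r per member, up to 4 per list) were chosen with earlier results of these data known.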

Additional observations from a re-analysis of the deposited data

Results flagged for a closer look

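In *ndl-5* the change from intact animals to tails at 12 hpa differed between *yki(RNAi)* and *control(RNAi)* by -0.51 on the log2 scale (SE 0.144, adjusted p = 0.0460 from edgeR's interaction test). The call was lost in 1 fit of all 24 libraries (adjusted p = 0.131 from edgeR), with the first lane only (0.0617) and in 9 of 12 fits that left out 1 library, and held in 7 of 18 alternatives. The mean share of the intact level left was 9.10% in *yki(RNAi)* and 13.3% in *control(RNAi)* tails, lower in 3 of 3 *yki(RNAi)* libraries. No group had more than 3 libraries, so single libraries were not tested for standing apart.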

How the results depend on the processing

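Alternatives were computed for 63 results, the 3 members in 21 comparisons. For tails against intact animals, all members kept direction and side of the threshold under every alternative run. The share of the intact level left has no threshold, and its alternatives were only compared with the SD of the 3 libraries. Leaving out 1 of 3 libraries cannot move a mean by as much as that SD, so staying within it is no finding. For *ndk* in *control(RNAi)* 6 hpa tails the share ran from 9.16% to 19.8% over the alternatives. For *ndl-5* in *yki(RNAi)* against *control(RNAi)* 6 hpa tails, the log2 fold change passed with DESeq2 size factors (-0.73), no filter (-0.72), 1 fit of all 24 libraries (-0.74), the DESeq2 Wald test (-0.73) and the first lane (-0.68). The interaction of *ndl-5* passed at 6 hpa with no filter (-0.83), and at 12 hpa did not pass with all 24 libraries (-0.54) or the first lane (-0.56). From 6 to 12 hpa in *control(RNAi)*, *ndl-5* passed with no filter (-0.59), all 24 libraries (-0.59) and the first lane (-0.55), and from 6 to 24 hpa with no filter (-0.59), all 24 libraries (-0.59), DESeq2 (-0.58) and the first lane (-0.53). From 12 to 24 hpa in *control(RNAi)*, *ndk* missed the threshold with all 24 libraries (0.84, adjusted p = 0.0502 from edgeR), and *ndk-3* with DESeq2 (0.46) and the first lane (0.33). With the first lane *ndk-3* changed sign in *yki(RNAi)* against *control(RNAi)* 24 hpa tails (0.12), in the interaction at 24 hpa (0.089) and in that of the step from 6 to 24 hpa (0.11), none of them called. The replicate letter as a block gave a log2 fold change of -0.68 for *ndl-5* in *yki(RNAi)* against *control(RNAi)* 6 hpa tails, -0.54 from 6 to 12 hpa and -0.55 from 6 to 24 hpa in *control(RNAi)*, all past the threshold, and changed no other call. Deviations of same-letter libraries correlated at -0.43 to 0.57 (median 0.05), and every pair exceeded 0.1 only for 24 against 6 hpa within an RNAi, so elsewhere the letters were not taken to pair the libraries. For 24 against 6 hpa the main fits were unpaired all the same, and the call of *ndl-5* in *control(RNAi)* depends on that choice. Leaving out 1 library at a time gave these ranges of log2 values. For *yki(RNAi)* against *control(RNAi)* they were -0.046 to 0.10 (*ndk*), -0.025 to 0.065 (*ndk-3*) and -0.018 to 0.20 (*ndl-5*) in intact animals, -0.57 to 0.56, -0.16 to 0.035 and -0.86 to -0.42 at 6 hpa, and -0.18 to 0.084 for *ndk-3* at 24 hpa. For the interaction they were -0.63 to 0.50 (*ndk*) and -0.94 to -0.51 (*ndl-5*) at 6 hpa, -0.017 to 0.16 and -0.68 to -0.44 at 12 hpa, and -0.64 to -0.47 (*ndk*) and -0.22 to 0.049 (*ndk-3*) at 24 hpa. For steps of *control(RNAi)* they were -0.80 to 0.35 (*ndk*) and -0.73 to -0.27 (*ndl-5*) from 6 to 12 hpa, 0.30 to 0.57 (*ndk-3*) and -0.12 to 0.10 (*ndl-5*) from 12 to 24 hpa, and 0.036 to 1.17 (*ndk*) and -0.73 to -0.28 (*ndl-5*) from 6 to 24 hpa. For *ndk* in *yki(RNAi)* they were -0.22 to 0.011 from 6 to 12 hpa and -0.0017 to 0.22 from 6 to 24 hpa, and for the interaction of the step from 6 to 24 hpa -1.05 to 0.061 (*ndk*) and -0.14 to 0.13 (*ndk-3*). The number of transcripts called moved more: 935 in intact animals became 260 to 3173, 1664 in the 12 hpa interaction 682 to 5008, 0 and 2 in those at 6 and 24 hpa up to 473 and 427, and 4687 from 12 to 24 hpa in *control(RNAi)* 1966 to 6829. The interaction of the step from 12 to 24 hpa had 10 higher and 6 lower, and with DESeq2 130 and 227. In the 12 hpa interaction 785 were higher and 879 lower, and with DESeq2 611 and 1164. The cause was not tested. Fits that left out 1 library kept at least 2 in each group. The depth, at 44 to 176 counts for *ndk* and *ndk-3* in a tail, limits what differences between tails could be detected.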
